A study of Mus musculus and Homo sapiens with 14 samples.

Results

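Oxidative phosphorylation genes were taken by symbol from the mouse and human count tables. They were genes with names starting Nduf, Uqcr, Atp5 or Cox4 to Cox8, Sdha to Sdhd, and the genes encoded on mitochondrial DNA. The rule was met by 114 of 26221 mouse entries with a symbol and by 118 of 27945 human ones. The mouse set held 75 nuclear genes for subunits of the respiratory chain and ATP synthase, 13 mitochondrially encoded protein genes, 2 mitochondrial ribosomal RNAs, 8 complex I assembly factors, 8 tissue-restricted isoforms of complex IV subunits, 6 copies or pseudogenes, Atp5s and the supercomplex factor Cox7a2l. Of the 75 nuclear subunits, 36 belonged to complex I, 4 to complex II, 8 to complex III, 11 to complex IV and 16 to complex V, and in human the numbers were 37, 4, 8, 11 and 17.

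The study profiled plasma cells by RNA sequencing with and without intact IRF4, a transcription factor of the B cell lineage needed for plasma cell identity. Splenic plasma cells came from C57BL/6 mice that had received Irf4 flox/- or Irf4 flox/+ bone marrow together with uMT marrow, which cannot make B cells, in congenically marked hosts. Both groups received tamoxifen on days 1, 2, 7 and 8, and donor plasma cells were sorted on day 14, with 2 libraries in each group. The labels name no Cre driver, and say nothing of how many animals stand behind a library. MPC-11, a mouse plasmacytoma line, and MM.1S, a human myeloma line, had received Cas9 with a guide against Irf4 or with an empty vector, were treated with doxycycline and were sorted on day 3 after deletion, again with 2 libraries in each group. Follicular B cells from spleen and bone marrow plasma cells of wild-type C57BL/6 mice gave 1 library each and served as references. Nothing in the labels says that replicates came from separate cultures or animals, so p-values measure only the spread between these libraries, which may be technical.

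Oxidative phosphorylation moves electrons from NADH through complex I, or from succinate through complex II, to complex III and then by cytochrome c to complex IV, which reduces oxygen. The protons pumped by complexes I, III and IV drive ATP synthase, complex V. Complex II is encoded wholly in the nucleus, while the other complexes are mosaics of nuclear subunits and a few subunits encoded on mitochondrial DNA, and both genomes must supply subunits for assembly. Plasma cells secrete large amounts of antibody and are known to depend on mitochondrial respiration.

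Libraries held 18738283 to 27003585 counts in mouse and 19317115 to 21572315 in human. Plasma cell markers (11 genes) summed to 79690 to 99340 CPM (counts scaled to a common depth, here by TMM over the mouse libraries) in the flox/+ libraries and 34050 to 36770 in those labelled flox/-, against 671 in follicular B cells. Irf4 is given in CPM scaled within each comparison, unlike the marker sums, so its levels cannot be set side by side between comparisons. The gene count of Irf4 was 114 and 53.8 CPM in the flox/+ libraries and 82.6 and 99.8 CPM in the libraries labelled flox/-, so it did not separate them (log2 difference 0.12; adjusted p = 0.967, edgeR). A count over the whole gene need not show loss of the floxed part, so it does not check those labels. In MPC-11, Irf4 was 467 and 496 CPM with the empty vector and 276 and 146 with the guide, and in MM.1S IRF4 was 489 and 434 CPM against 142 and 191. Immunoglobulin genes took 72.2% and 73.4% of counts in the flox/+ libraries and 56.3% and 52.8% in those labelled flox/-. Macrophage and monocyte markers (11 genes) summed to 190 to 546 CPM in the flox/+ libraries, where Fcgr1 was at 0 in 1, and to 658 to 7683 CPM in those labelled flox/-, where none was at 0. T cell markers (11 genes) summed to 16.9 to 30.6 CPM in flox/+ libraries, with 5 at 0 in each, Trbc1, Cd8a and Thy1 among them in both, against 209 to 535 CPM with 0 to 1 at 0. Erythroid markers (9 genes) were 5.38 to 50.8 CPM, with Klf1 and Epor at 0 in both, against 54.8 to 961 with none at 0. NK cell markers (8 genes) were 13.6 to 21.9 CPM, with 6 at 0, among them Ncr1 and Klrb1c, against 47.6 to 133 with 1 to 4 at 0. B cell markers (10 genes) were 239 to 256 against 488 to 800 CPM. Their part in the results on splenic cells was not tested.

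Nuclear subunit genes took 1.20% of the counts outside immunoglobulin genes in bone marrow plasma cells and 1.24% in follicular B cells. The flox/+ libraries a and b stood at 1.22% and 1.58%, and the libraries labelled flox/- at 1.18% and 1.07%. In MPC-11 the share was larger, at 2.85% and 2.18% with the empty vector and 1.87% and 2.09% with the guide. The 13 mitochondrially encoded genes spread more widely. They took 0.434% in follicular B cells, 0.281% in bone marrow plasma cells, 0.473% and 0.117% in flox/+ libraries a and b, and 0.638% and 0.363% in those labelled flox/-. MPC-11 libraries gave 0.833% and 1.57% with the empty vector and 1.51% and 1.99% with the guide. The flox/+ library with the highest nuclear share thus had the lowest mitochondrial share, and the same held for the empty vector libraries of MPC-11. Against the 1 follicular B cell library, per gene and in CPM, bone marrow plasma cells had a median log2 difference of 0.07 over 74 nuclear subunits, with 41 above and 33 below, and of -0.64 over the mitochondrially encoded genes, with all 13 below. In the bone marrow library neutrophil markers (8 genes) summed to 802 CPM with none at 0, against 10.2 CPM with 5 at 0 in follicular B cells, and B cell markers to 719 against 6764 CPM; their part in these differences was not tested. MPC-11 libraries lay above follicular B cells in the median of both genomes, by 0.27 to 0.99 and by 0.58 to 2.00. These differences have no replicate check. In bulk samples fewer cells of a type and less RNA per cell cannot be told apart.

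**Figure D1:**
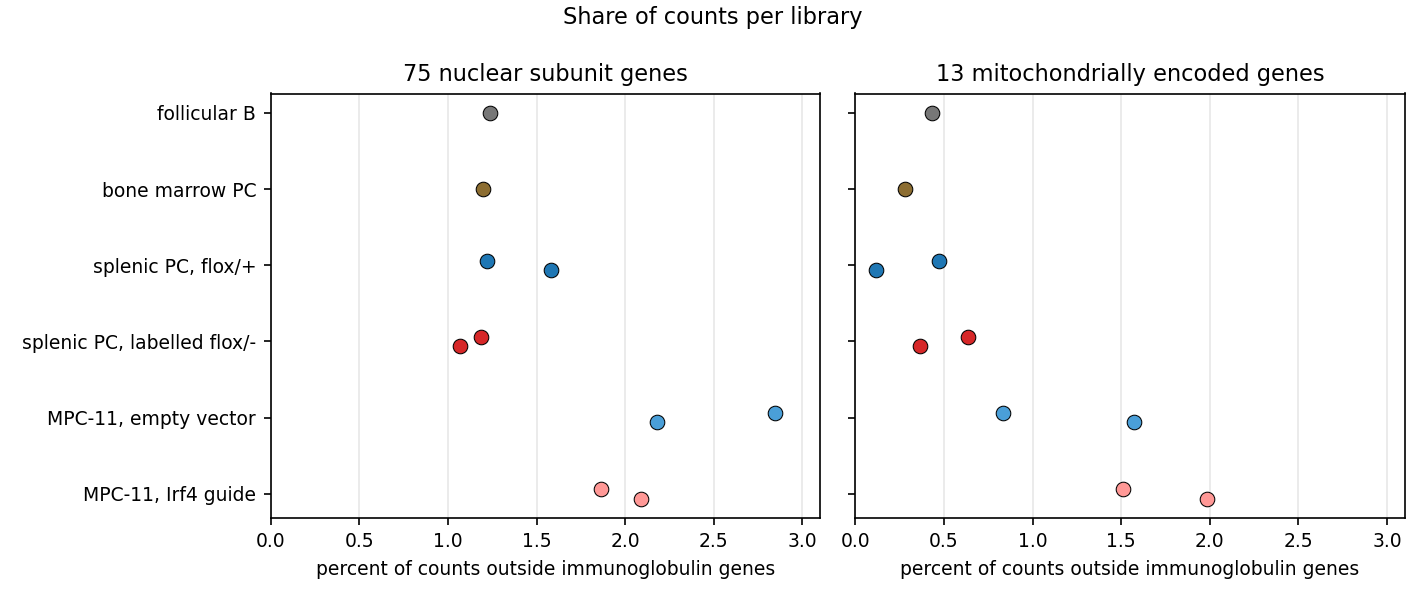
Percent of counts outside immunoglobulin genes in 75 nuclear subunit genes (left) and 13 mitochondrially encoded protein genes (right), 1 point per mouse library (PC, plasma cells). Nuclear shares in MPC-11 run from 1.87% to 2.85%, above every other mouse library, and mitochondrial shares spread from 0.117% to 1.99%.

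Per kilobase of exon, the highest nuclear subunit of complex IV over the 10 mouse libraries was Cox4i1, the ubiquitous form of the subunit that binds ATP, with a mean of 663 CPM per kb. Atp5b, the catalytic beta subunit of ATP synthase, led complex V at 484 CPM per kb, Ndufa1 led complex I at 392, Uqcrc1, a core protein of complex III, led that complex at 268, and Sdhb, the iron-sulfur subunit of succinate dehydrogenase, led complex II at 143. Cox4i1 and Atp5b led their complexes in each of the 10 libraries, but the other places depended on the cells. Uqcr10, a small subunit of complex III, lay above Uqcrc1 with the empty vector in MPC-11, at 749 and 408 against 406 and 294 CPM per kb. It did so in guide library 2 as well, at 397.5 against 254.5, but not in guide library 1, at 249.5 against 342.6 CPM per kb. Sdha lay above Sdhb in follicular B cells, at 160.5 against 119 CPM per kb, and in 3 of the 4 libraries of MPC-11. In complex I, Ndufa2 lay above Ndufa1 in follicular B cells, at 172 against 148.5 CPM per kb, and Ndufb9 did so in both empty vector libraries of MPC-11, at 499 and 231 against 449 and 230 CPM per kb. The medians by complex were 61.6, 76.5, 76.7, 101 and 77.8 CPM per kb for complexes I to V. At the low end stood Uqcr11 of complex III at 0.106, Ndufab1, the mitochondrial acyl carrier protein, at 1.14, Atp5g2, 1 of the genes for the c-ring subunit of ATP synthase, at 1.19, and Cox7c at 2.61 CPM per kb. In MM.1S, UQCR11 ranged from 464 to 559 CPM and COX7C from 178 to 237 CPM (not per length, TMM over all 4 libraries). Ndufab1 has 4387 exonic bases, and in CPM not divided by length it lay above Ndufb4 of complex I in every mouse library. Part of Cox7c (27.9% of its 50-base stretches), of Atp5g2 (14.8%) and of Ndufab1 (12.3%) also occurs in transcripts of other genes. Reads from such stretches cannot be assigned with certainty. For Uqcr11 that share was 1.44%. By the authors' deposited log2 FPKM, in which levels of different genes can be compared, ATP5F1B led the human nuclear subunits in MM.1S with a mean of 10.70, followed by COX5B at 9.45 and COX8A at 9.42.

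Among the 13 mitochondrially encoded genes, COX1, a catalytic subunit of complex IV, had the highest mean at 1432 CPM per kb, followed by CYTB, the cytochrome b of complex III, at 613, ND1 of complex I at 321 and COX3 of complex IV at 240 CPM per kb. These means rest partly on MPC-11: COX3 ranged from 240 to 811 CPM per kb there and from 7.41 to 91.8 in the primary cells, and COX1 from 1681 to 3431 there and from 197 to 955 in the primary cells, where CYTB ranged from 176.5 to 955. ND3 and ND4L, short subunits of complex I, were the lowest at 2.16 and 1.76 CPM per kb, with 1 to 12 and 0 to 2 counts in a splenic library. These levels have to be read against the nuclear copies of mitochondrial DNA. Annotated pseudogenes on chromosome 1 between 24611535 and 24616197 (GRCm38) carry sequence of COX1, COX2, ATP6, COX3, ND3, ND4L and ND4. A 50-base stretch of COX2, COX3, ATP6, ND4L or ND3 also occurred in a transcript of another gene in 100%, 99.9%, 99.5%, 98.8% and 98.0% of positions, while the share was 62.2% for ND4, 51.1% for COX1, 8.19% for ND2, 7.61% for ND5 and 0% for ND1, ND6, CYTB and ATP8. The copy of COX2, Gm28661 on chromosome 1 (24614885 to 24615565), matched 681 of the 684 bases with 0 differences. ATP8 lies between COX2 and ATP6 on mitochondrial DNA, and the stretch between their copies on chromosome 1 holds no annotated transcript, so its share counts annotated transcripts only. The first 80 bases of COX2 are shown because the nuclear copy carries them letter for letter, so that no read within them can be placed by sequence (plus strand of chrM:7013-7092, GRCm38, from GENCODE M21).
COX2: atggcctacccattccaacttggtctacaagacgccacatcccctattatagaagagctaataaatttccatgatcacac

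Over the 13 genes the level per kilobase and the shared share had a Spearman rho of -0.06, given as a description of genes that share the same libraries. ND3 and ND4L combined a high share with the lowest levels, whereas COX3, with a share of 99.9%, ranged from 7.41 CPM per kb in flox/+ library b to 811 in MPC-11. How multiply mapped reads were treated is not given in the sources used here, and values of COX1, COX2, COX3, ATP6, ND3, ND4 and ND4L are uncertain for that reason. For CYTB and ND1 no stretch occurred in another annotated transcript, and copies outside annotated transcripts were not measured.

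**Figure D2:**
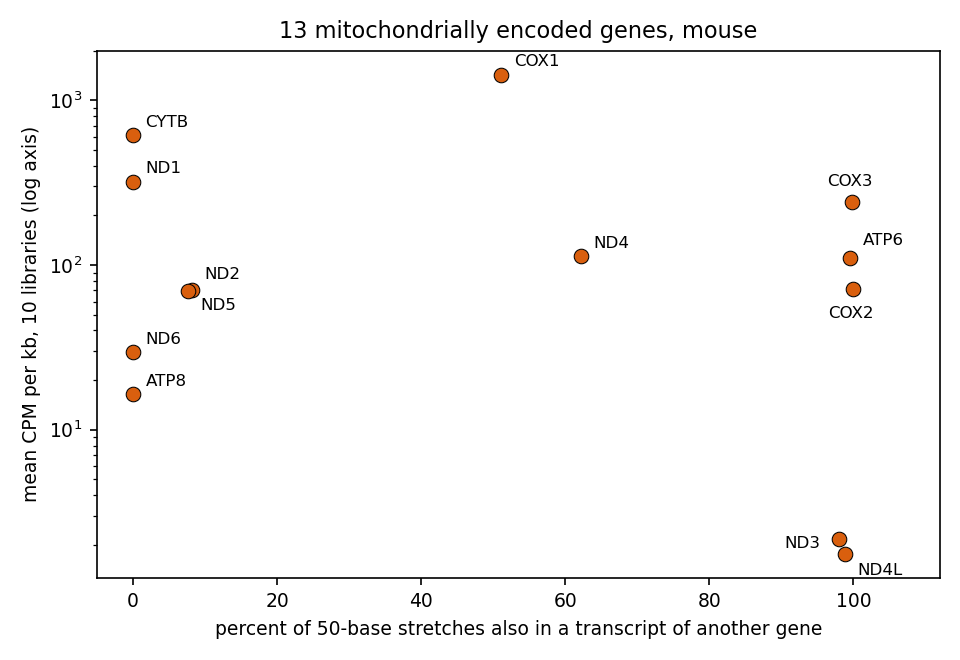
Mean level of the 13 mitochondrially encoded genes over 10 mouse libraries (CPM per kb of exon, log axis) against the percent of their 50-base stretches found in a transcript of another gene. COX1 leads at 1432 CPM per kb with 51.1% shared, and ND3 and ND4L lie at 2.16 and 1.76 with 98.0% and 98.8% shared.

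The first comparison asked how the genes stood in splenic plasma cells labelled Irf4 flox/- against flox/+. Of 114 members 105 passed the filter on low counts. With TMM scaling nuclear subunits mostly had lower values in the libraries labelled flox/-, with a negative log2 fold change in 69 of 74 tested, where all genes gave 45.7%, but with library size alone 9 of 74 were lower. Mitochondrially encoded genes mostly had higher values, in 9 of 10 tested. The median log2 fold change of nuclear subunits was -0.47, against 0.09 over all 11887 genes tested, and it was 0.71 for the mitochondrially encoded genes. No member passed the threshold in edgeR's quasi-likelihood test with Benjamini-Hochberg adjustment over all genes, where 0% of all genes did; at an unadjusted p under 0.05 there were 4 of 105 members (Ndufa1, Ndufb8, Ndufa4 and Atp5e), where 12.5% of all genes were, so this is no excess. DESeq2 also called no member, where it called 5.34% of all genes. In 33 of 74 nuclear subunits both libraries labelled flox/- lay below both flox/+ libraries, as in 18.3% of all genes, and in 1, Atp5g2, they lay above, as in 25.7%. With library size alone the nuclear median was 0.42 (mitochondrial 1.52), but the median of all genes was then 0.98, so the nuclear median lay 0.55 below that of all genes with TMM and 0.56 below it with library size alone.

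By complex, the nuclear medians were -0.59 for complex I (36 tested), -0.24 for complex II (4), -0.36 for complex III (7), -0.46 for complex IV (11) and -0.46 for complex V (16). Lower values were found in 33, 4, 7, 10 and 15 of them with TMM scaling.

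Complex I values ranged from -1.19 to 0.11 among genes with a mean of at least 10 CPM. Ndufa3, a small accessory subunit, stood at 64.9 and 144 CPM in flox/+ libraries a and b and at 56.3 and 35.2 CPM in those labelled flox/- (104 ± 55.6 against 45.8 ± 14.9, SD, n = 2). The groups did not overlap, but library a lay near the higher of the other group, and the log2 difference of -1.19 (SE 0.49) had an adjusted p of 0.421 in edgeR. Ndufa1, an accessory subunit of the membrane arm, was 148 and 189 CPM against 101 and 58.0 CPM (log2 fold change -1.08, SE 0.39; adjusted p = 0.339, edgeR). Ndufb8, another accessory subunit of the membrane arm, gave 123 and 214 CPM against 90.8 and 77.9 CPM. At the other end Ndufa10, an accessory subunit, was 30.2 and 35.7 CPM against 31.6 and 39.7 CPM, a log2 fold change of 0.11. Of the catalytic core, Ndufv1, which binds NADH and FMN, had 80.3 and 114 CPM against 54.9 and 64.0 CPM with no overlap (-0.71, SE 0.32; adjusted p = 0.479, edgeR). Ndufs1, which carries iron-sulfur clusters, overlapped between groups, at 25.3 and 14.6 against 12.7 and 24.8 CPM, with a log2 fold change of -0.09.

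Complex II had the median nearest 0. Sdha, the flavoprotein that oxidises succinate, was 222 and 198 CPM in flox/+ libraries and 127 and 180 CPM in those labelled flox/-, without overlap (log2 fold change -0.45, SE 0.32; adjusted p = 0.700, edgeR). Sdhb overlapped, with 98.7 and 171 against 122 and 93.4 CPM, as did the membrane anchor Sdhc, with 38.8 and 41.9 against 47.6 and 24.9 CPM. In complex III, Uqcrfs1, the Rieske iron-sulfur protein, had 46.6 and 60.1 CPM against 38.6 and 35.8 CPM (-0.52, SE 0.31; adjusted p = 0.626, edgeR). Uqcrq, a small accessory subunit, had the lowest log2 fold change of complex III at -0.72 and Uqcrc1 the highest at -0.22, and both overlapped.

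Ndufa4, which despite its name is a subunit of complex IV, was 91.7 and 102 CPM against 60.7 and 44.4 CPM (-0.88, SE 0.31; adjusted p = 0.339, edgeR). Cox7a2, the ubiquitous form of subunit 7a, was lowest of complex IV at -0.97, with 10.6 and 17.6 CPM against 8.04 and 6.33 CPM. Cox5a, a nuclear subunit next to the catalytic core, showed the reverse spread inside each group, at 20.7 and 45.6 against 47.9 and 21.2 CPM, and a log2 fold change of 0.06. Cox4i1 overlapped, at 184 and 265 against 195 and 129 CPM.

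For ATP synthase, Atp5e, the epsilon subunit of the central stalk, was 56.2 and 63.9 CPM against 38.5 and 24.8 CPM (60.03 ± 5.40 against 31.6 ± 9.67, SD, n = 2; log2 fold change -0.92, SE 0.35; adjusted p = 0.373, edgeR). Its separation was wider than the spread within either group. The catalytic subunits differed less: Atp5b was 381 and 410 CPM against 325 and 348 CPM (-0.23), and Atp5a1, the alpha subunit, was 241 and 272 CPM against 249 and 242 CPM (-0.06). Atp5g2 had the highest value of any member, 2.50, on 2 and 2 counts against 30 and 12, and was named after its values were seen.

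Mitochondrially encoded genes showed the wide spread of the libraries. COX1 was 758 and 188 CPM in flox/+ libraries a and b and 920 and 535 CPM in those labelled flox/- (473 ± 403 against 727 ± 272, SD, n = 2; log2 fold change 0.62, SE 0.70; adjusted p = 0.840, edgeR). CYTB was 511 and 125 CPM against 681 and 349 CPM, and ND1 was 185 and 70.6 CPM against 238 and 120 CPM. In each of the 3, library a of flox/+ lay between the 2 libraries of the other group and library b below both. ND4, ND5, ND2 and ND6 followed this order, with log2 fold changes of 0.91, 0.73, 0.72 and 0.95. COX2, the other core subunit that binds copper, was the only mitochondrially encoded gene tested without overlap, at 6.14 and 0.847 CPM against 17.9 and 7.46 CPM (1.86, SE 1.03; adjusted p = 0.586, edgeR), and ATP6, the proton channel subunit of ATP synthase, was the only one below 0, at 18.4 and 0.529 against 12.5 and 2.89 CPM (-0.30); both are among the genes with full copies on chromosome 1. ND3, ND4L and ATP8 did not pass the filter. Without flox/+ library b or without library 1 labelled flox/- the mitochondrial median was 0.04 and 0.02, and without flox/+ library a it was 2.05. The 2 mitochondrial ribosomal RNAs did not share the direction, with mt-Rnr1 at -0.94 and mt-Rnr2 at -0.15, both overlapping.

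**Figure D3:**
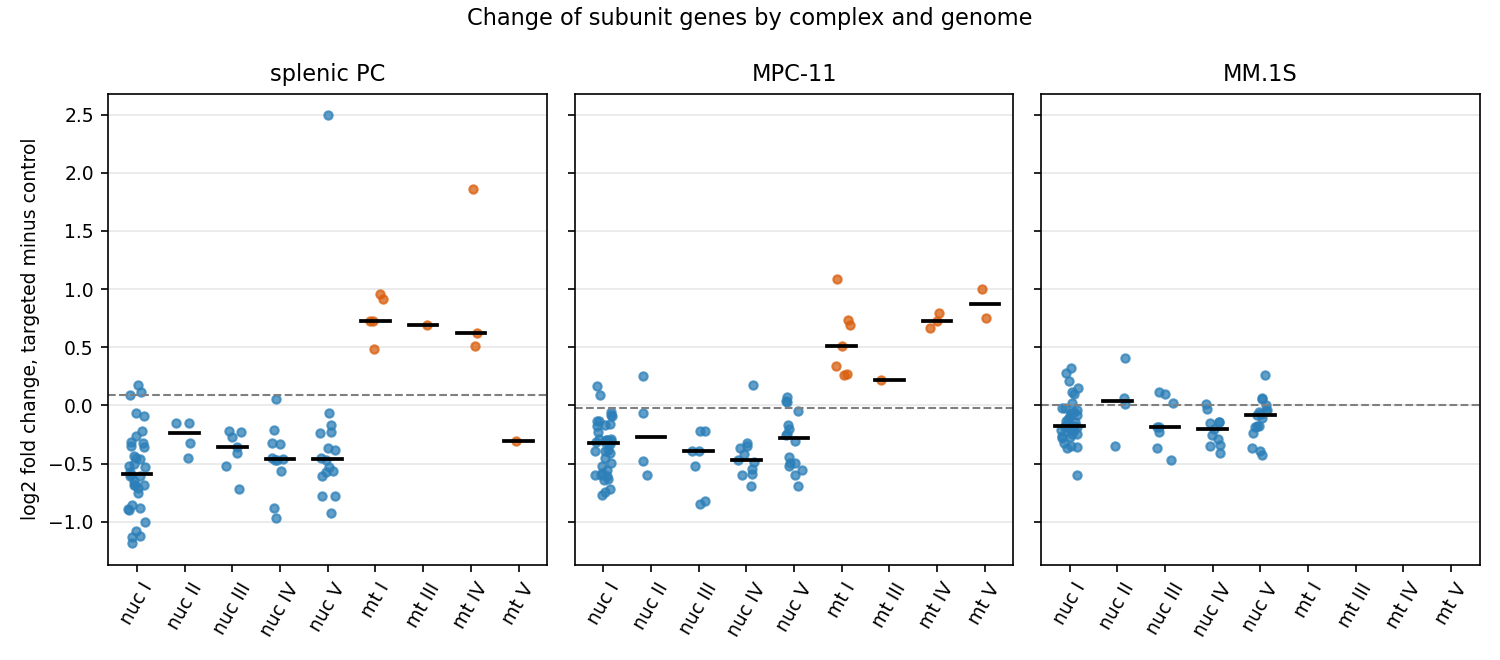
Log2 fold change of each subunit gene tested (targeted minus control, TMM scaling), by complex and genome (nuc, nuclear; mt, mitochondrially encoded), in splenic plasma cells (PC), MPC-11 and MM.1S; bars are medians and the dashed line is the median of all genes tested. Nuclear medians lie between -0.59 and 0.04 and the mitochondrial points lie above 0 apart from ATP6 in splenic cells (none tested in MM.1S). In splenic cells the nuclear median is 0.42 and that of all genes 0.98 when libraries are scaled to size alone.

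The second comparison set MPC-11 cells with the Irf4 guide against cells with the empty vector, and 108 of 114 members were tested. Nuclear subunits were lower in 67 of 74, where all genes gave 51.5%, and all 13 mitochondrially encoded genes were higher. Median log2 fold changes were -0.38 and 0.69, against -0.02 over 10670 genes. No member was called by edgeR, which called 0.0187% of all genes, or by DESeq2, which called 1.49%; 1 member of 108, Cox4i2, had an unadjusted p under 0.05 in edgeR, where 6.04% of all genes did. Both guide libraries lay below both empty vector libraries in 16 of 74 nuclear subunits, against 16.5% of all genes, and above them in 1, Sdha, against 16.9%. The share of 21.6% lower was near that of all genes.

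Nuclear medians by complex were -0.33, -0.27, -0.39, -0.47 and -0.28 for complexes I to V. Ndufa8, an accessory subunit of complex I, was lowest in its complex among genes with a mean of at least 10 CPM, at 30.5 and 16.8 CPM with the empty vector and 11.8 and 15.9 CPM with the guide (-0.77, SE 0.51), so that the groups were separate by a narrow margin. Uqcrq had the lowest value of complex III, at 420 and 225 CPM against 130 and 228 CPM (-0.85, SE 0.42; adjusted p = 0.927, edgeR). In both genes empty vector library 1 stood far above the other 3 libraries. Cox6b1, which joins the monomers of complex IV, gave the same picture, at 316 and 167 CPM against 137 and 182 CPM, and so did Cox4i1, at 1878 and 1191 CPM against 942 and 1249 CPM. Without empty vector library 1 the nuclear median was -0.02 and 40 of 74 were lower.

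Among the catalytic genes, Ndufv1, Sdhb, Atp5b, Sdha and Atp5a1 had narrower gaps between the empty vector libraries. Sdha was 386 and 384.5 CPM and Atp5a1 463 and 498 CPM there, and neither had a negative log2 fold change with the guide. Wider gaps were found in others, with Uqcrc1 at 672 and 485 CPM and Ndufs1 at 116 and 171 CPM (these values with TMM over all mouse libraries). Ndufv1 was 320 and 311 CPM against 288 and 226 CPM (-0.29, SE 0.29), Sdhb 274 and 232 against 196 and 167 CPM (-0.48, SE 0.29) and Atp5b 2403 and 2272 against 2054 and 2115 CPM (-0.17, SE 0.26). Each lay lower with the guide in both libraries, and none of the 3 passed the threshold in edgeR. Sdha went the other way, at 608 and 631 CPM against 840 and 639 CPM (0.26, SE 0.29), and the highest guide value came from library 1 alone. Atp5g1, a c-ring gene, was 15.1 and 14.1 CPM against 9.26 and 9.95 CPM (-0.60, SE 0.52). Ndufv3 and Cox7b were the highest of complexes I and IV, at 0.17 each, and Atp5a1 the highest of complex V, at 0.07, all with overlapping groups.

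COX1 was 4097 and 6145 CPM with the empty vector and 7585 and 8650 CPM with the guide (5121 ± 1450 against 8117 ± 753, SD, n = 2), a log2 difference of 0.66 (SE 0.30; adjusted p = 0.865, edgeR) with no overlap. ND3 was also separate, on 23 and 19 counts against 40 and 48. The other 11 overlapped: CYTB was 677 and 1852 CPM against 1190 and 1757 CPM (0.22), ND1 373 and 691 CPM against 612 and 1102 CPM (0.69), and COX3 297 and 685 CPM against 665 and 1037 CPM (0.79). For each of these, empty vector library 1 was the lowest of the 4 libraries. COX2, ATP6 and ATP8 had log2 fold changes of 0.73, 0.75 and 1.00. The mitochondrial median was 0.23 without empty vector library 1, 0.07 without guide library 2 and 1.22 without empty vector library 2.

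How each library deviated from the mean of its 4 libraries shows what these medians rest on. In splenic cells the median deviation of nuclear subunits (log2) was 0.02 and 0.49 in flox/+ libraries a and b and -0.03 and -0.48 in libraries 1 and 2 labelled flox/-. Flox/+ library a and library 1 labelled flox/- were therefore close together, and the difference between groups lay in the other pair. Mitochondrially encoded genes deviated by 0.47 and -1.42, and by 1.11 and -0.19. In MPC-11 the nuclear values were 0.47 and -0.12 with the empty vector and -0.38 and -0.01 with the guide, and the mitochondrial ones -0.91 and 0.29, and -0.12 and 0.76. Empty vector library 1 and flox/+ library b thus combined the highest nuclear with the lowest mitochondrial values of their comparison.

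**Figure D4:**
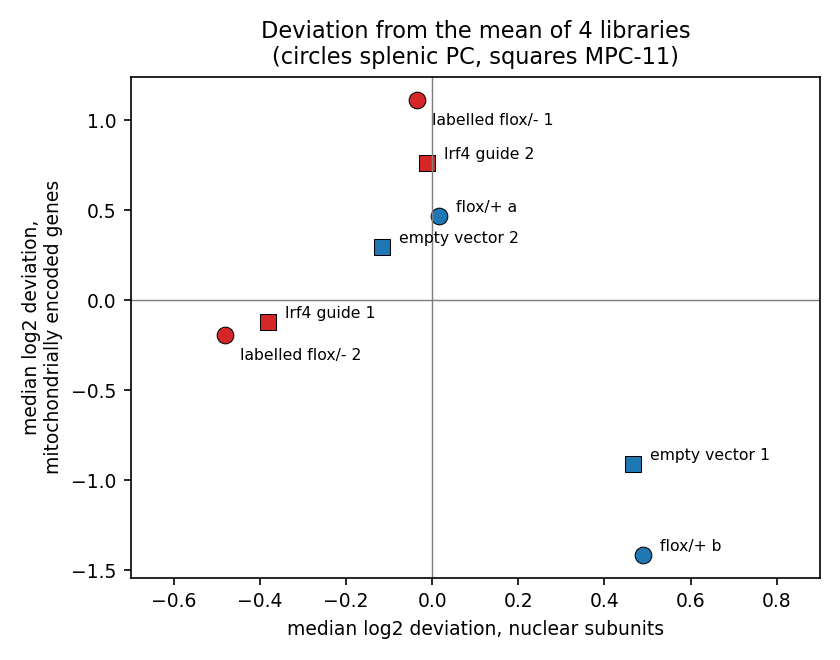
Median log2 deviation from the mean of the 4 libraries of a comparison, nuclear subunits (x) against mitochondrially encoded genes (y), for splenic plasma cells (circles) and MPC-11 (squares), controls blue and targeted red. Flox/+ library b (0.49, -1.42) and empty vector library 1 (0.47, -0.91) lie apart at lower right.

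Transcript length moved with these differences. Genes of up to 1000 exonic bases had a median log2 fold change of -0.42 in splenic cells (1027 genes), against 0.12 for longer genes (10762), and in MPC-11 -0.21 (809) against 0.00 (9762). Nuclear subunits, with a median of 992 exonic bases against 3069 over all genes tested with a length in the splenic comparison, stood at -0.50 and -0.46 below and above that length in splenic cells and at -0.45 and -0.29 in MPC-11. Between empty vector libraries 1 and 2 of MPC-11, genes of up to 1000 bases differed by a median of 0.58 (log2) and longer genes by -0.04, and nuclear subunits by 0.69 and 0.49. The part of length in the results was not tested.

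Whether the change differed between splenic cells and MPC-11 was tested by the difference of the effects over 8 libraries. EdgeR called none of 109 members and 0% of all 12993 genes. No member had an unadjusted p under 0.05 in edgeR. The share of all genes at that level was not counted, so this cannot be called low or high. DESeq2 called 181 genes and no member. Sdha, lower in both libraries labelled flox/- and higher in both guide libraries, differed by -0.71 (SE 0.43) and did not pass. Of the nuclear subunits tested in both, 63 of 74 had a negative log2 fold change in both with TMM scaling, where 28.4% of the 9710 genes tested in both did. Both targeted libraries lay below both controls in both comparisons for 5 of the 74, near the 4.34% of all genes: Ndufa11, Ndufs3, Ndufs8, Ndufv1 and Atp5b. Ndufs8, a core subunit with iron-sulfur clusters, was 118 and 204 against 116 and 108 CPM in splenic cells and 212 and 150 against 110 and 124 CPM in MPC-11.

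The third comparison set MM.1S cells with the IRF4 guide against the empty vector. All 13 mitochondrially encoded genes were listed at 0 counts in all 4 libraries, so only nuclear genes could be compared, and 95 of 118 members were tested. Nuclear subunits were lower in 60 of 77, where all genes gave 49.3%, with a median log2 fold change of -0.17 against 0.01 over 12696 genes. No member was called by edgeR, which called 0.00788% of all genes, or by DESeq2, which called 2.95%; at an unadjusted p under 0.05, edgeR had 1 lower (NDUFB4) and 1 higher (SDHA) of 95 members, where 4.58% and 5.42% of all genes were. Both guide libraries lay below both controls in 16 of 77 (20.8%, all genes 18.9%) and above them in 7 (9.09%, all genes 22.4%). Without empty vector library 2 the median turned to 0.04 and 32 of 77 were lower.

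Medians by complex were -0.18, 0.04, -0.19, -0.21 and -0.08 for complexes I to V. SDHA was 999 and 904 CPM with the empty vector and 1279 and 1243 CPM with the guide (952 ± 66.7 against 1261 ± 25.7, SD, n = 2; log2 fold change 0.41, SE 0.16; adjusted p = 0.468, edgeR). Both guide libraries stood above both controls by more than the spread within groups. NDUFB4, an accessory subunit of complex I, was 113 and 137 CPM against 91.5 and 73.5 CPM (-0.60, SE 0.23; adjusted p = 0.451, edgeR). The complex I core gene NDUFV1 (482 and 468 against 520 and 577 CPM, 0.21) lay higher with the guide in both libraries.

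UQCRH, the hinge protein of complex III, was 168 and 200 CPM against 141 and 124 CPM (-0.47, SE 0.21; adjusted p = 0.517, edgeR), and COX8A, a small subunit of complex IV, was 362 and 433 CPM against 318 and 281 CPM (-0.41, SE 0.19; adjusted p = 0.563, edgeR). Neither overlapped. COX5A was 274 and 387 against 252 and 267 CPM (-0.35), also without overlap, while COX4I1 and COX5B overlapped. Among ATP synthase genes, ATP5F1B, the human name of the beta subunit, was 3074 and 3352 CPM against 2961 and 3260 CPM (-0.05). ATP5PB, of the peripheral stalk, was 102 and 103 CPM against 124 and 122 CPM (0.26, SE 0.19; adjusted p = 0.773, edgeR), without overlap.

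Among tissue-restricted isoforms of complex IV, Cox6a2 and Cox4i2 reached the highest levels, and both differed widely between cell types. Cox6a2, the form of subunit 6a known from heart and skeletal muscle, had 0 counts in follicular B cells. It reached 44.4 CPM in bone marrow plasma cells, 21.7 and 64.8 CPM in the flox/+ libraries a and b and 17.7 and 20.02 CPM in those labelled flox/-, and was 2.21 to 4.04 CPM in MPC-11 (TMM over all mouse libraries). Against a floor of 3 counts in follicular B cells (0.0763 CPM, counting error only), bone marrow plasma cells were at least 582-fold higher, with 1 library each. Muscle markers (10 genes) summed to 12.5 CPM in bone marrow plasma cells and 10.7 in follicular B cells, with 6 of the 10 at 0 in both. Per kilobase, Cox6a2 made up 17.3% of Cox6a1 and Cox6a2 together in bone marrow plasma cells, 9.02% and 17.6% in the flox/+ libraries, 6.64% and 10.52% in those labelled flox/-, and 0.714% to 0.982% in MPC-11.

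Cox6a2 (chromosome 7, 128205435 to 128206387, GRCm38) lies within the span of Itgad, an integrin gene, and counting by strand is not stated. Itgad had 0 counts in bone marrow plasma cells and in all MPC-11 libraries, so counts of Cox6a2 there came with none of Itgad. In splenic cells Itgad was 30.5 and 10.9 CPM in the flox/+ libraries and 261 and 59.6 CPM in those labelled flox/-, the reverse order of Cox6a2. Scaled within the comparison, Cox6a2 was 13.8 and 40.1 CPM in flox/+ libraries and 11.01 and 12.6 CPM in those labelled flox/- (-1.19, SE 0.58; adjusted p = 0.518, edgeR), without overlap.

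Cox4i2, the form of subunit 4 known for its regulation by oxygen, was also at 0 counts in follicular B cells. MPC-11 held most of it. Scaled within the comparison it was 31.5 and 23.1 CPM with the empty vector and 6.96 and 12.8 CPM with the guide (27.3 ± 5.91 against 9.89 ± 4.15, SD, n = 2; log2 fold change -1.46, SE 0.52; adjusted p = 0.664, edgeR, DESeq2 adjusted p = 0.344). The groups did not overlap, and the smallest unadjusted edgeR p of any member in this comparison was that of Cox4i2, at 0.0255. In splenic cells Cox4i2 was 1.64 and 1.54 CPM against 0.650 and 0.157 CPM, on 5 to 29 counts (-1.96, SE 1.18; adjusted p = 0.629, edgeR). Per kilobase it stayed under 2% of Cox4i1 and Cox4i2 together in every library, with a highest share of 1.85%.

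Other isoforms were low. Cox7a1, the muscle form of subunit 7a, was 3.81 and 1.595 CPM against 1.61 and 8.49 CPM in MPC-11, with 2 to 7 counts in a splenic library. Ndufa4l2, the hypoxia-inducible relative of Ndufa4, was 1.81 and 3.07 CPM against 1.27 and 1.85 CPM in splenic cells and overlapped. Its level also differed between cell types. With TMM over all mouse libraries it was 0.0509 CPM in follicular B cells and 1.44 in bone marrow plasma cells. On that scale splenic libraries held 2.035 to 4.95 CPM and MPC-11 libraries 0.0345 to 0.736. In MM.1S, COX4I2, COX6A2, COX6B2, COX7A1, COX7B2 and COX8C were listed at 0 in every library, and NDUFA4L2 was 1.19 to 3.78 CPM.

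**Figure D5:**
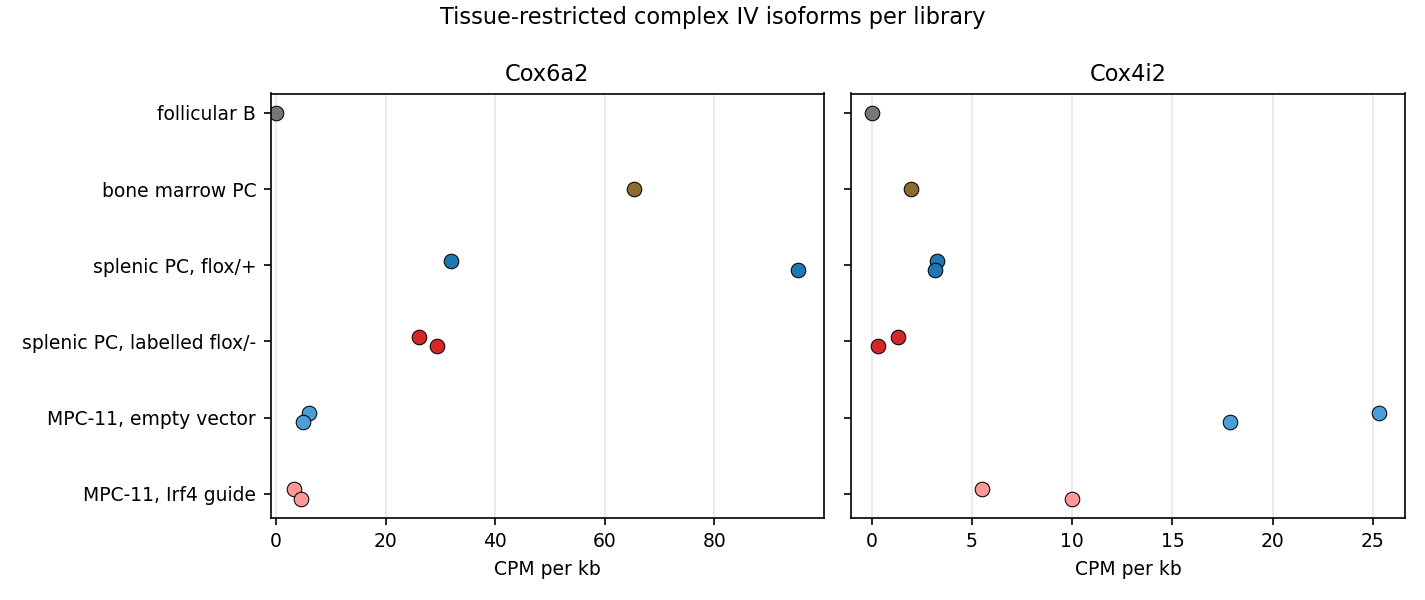
Cox6a2 (left) and Cox4i2 (right) in CPM per kb of exon, 1 point per mouse library (PC, plasma cells). Follicular B cells are at 0 for both; Cox6a2 is highest in flox/+ library b and in bone marrow plasma cells, and Cox4i2 is highest with the empty vector in MPC-11.

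Genes that build or serve the chain gave few calls. In the splenic comparison mitochondrial ribosomal protein genes, which translate the 13 mitochondrial messages, were lower in 62 of 78 tested (median -0.32), where 45.7% of all genes were, with no edgeR call and, where DESeq2 called 5.34% of all genes, 1 DESeq2 call, Mrpl57, at 121 and 147 CPM against 65.0 and 51.1 CPM (adjusted p = 0.281, edgeR, DESeq2 adjusted p = 0.0205). Their medians were -0.25 in MPC-11 (66 of 78 lower, all genes 51.5%) and -0.18 in MM.1S (58 of 78 lower, all genes 49.3%). Genes for the copying and expression of mitochondrial DNA, RNA processing and stability included, were centred near 0. Tfam, Polrmt and Lrpprc are examples. The medians were 0.11, 0.02 and 0.03 in the 3 comparisons, with 8, 8 and 9 of 18 lower. Citric acid cycle and pyruvate dehydrogenase genes had medians of 0.06, -0.09 and -0.10 over 16 genes. Assembly factors outside the symbol rule were lower in 23 of 38, 27 of 38 and 22 of 40 genes, to be read against the same shares of all genes. In a list of cytochrome c, cytochrome c1 and coenzyme Q synthesis genes 7, 10 and 7 of 13 were lower. Cyc1, the cytochrome c1 of complex III, lies outside the symbol rule and was counted here, not with complex III. It overlapped in splenic cells (-0.24) and lay lower in both guide libraries of MPC-11 (-0.52). Of this list 1 gene was called by DESeq2 in MM.1S, where 2.95% of all genes were. COQ8A, a kinase-like protein of coenzyme Q synthesis, was higher with the guide, at 177 and 199 CPM against 323 and 295 CPM (0.72, SE 0.19; adjusted p = 0.310, edgeR, DESeq2 adjusted p = 0.0142). Complex I assembly factors within the rule had medians of -0.37, -0.29 and 0.07 over 8 genes each. All of these signs in splenic cells are with TMM scaling.

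Promoter sequences were compared because nuclear subunit genes are known targets of the factors NRF1 and GABPA. RefSeq promoters (250 bases before to 50 after the start, GRCm38.p6) were matched to 63 of the 75 mouse nuclear subunit genes, with 68 entries of 32851. NRF1 letters (GCGC, any 2 bases, GCGC) were found on either strand in 20 of 68 entries (29.4%), against 6.23% of all entries. The ETS letters bound by GABPA (CCGGAAG) were in 16 (23.5%) against 8.86%, and YY1 letters (AAGATGGC) in 10 (14.7%) against 2.75%. Within the 150 bases before the start the shares were 22.1% against 4.097%, 14.7% against 5.52%, and 1.47% against 0.861%, so most YY1 matches lay outside that window. An ETS-IRF composite (GGAA, any 2 bases, GAAA), which IRF4 is known to bind with ETS partners, was in 0 of 68 entries against 2.72% of all, and an interferon-stimulated response element (GAAA, any 2 bases, GAAA) in 2, of Ndufs3 and Ndufa9 (2.94% against 3.44%). The E-box CACGTG was in 10.3% against 7.15%, TCAAGGTCA of ERR alpha in 2.94% against 0.423%, and CCAAT in 39.7% against 37.4%. Motifs could overlap one another, and a match is a description of letters only.

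Shown are the 150 bases before the start of 4 nuclear subunit genes with 2 of the 3 kinds of NRF1, ETS and YY1 letters in that stretch, and of Sdha, which (with TMM scaling) had lower values in splenic cells and higher values in both cell lines. Capitals mark the NRF1, ETS (CCGGAAG or its reverse CTTCCGG) and YY1 letters. All are on the minus strand of GRCm38.p6, from RefSeq: Atp5h, the d subunit of ATP synthase, at chr11:115419920-115420069, Atp5j, coupling factor 6 of ATP synthase, at chr16:84834977-84835126, Cox6a1, the common form of subunit 6a, at chr5:115348959-115349108, Sdhd, a membrane anchor of complex II, at chr9:50603850-50603999, and Sdha at chr13:74350241-74350390. Sdha held 3 NRF1 matches and no ETS or YY1 match.
Atp5h: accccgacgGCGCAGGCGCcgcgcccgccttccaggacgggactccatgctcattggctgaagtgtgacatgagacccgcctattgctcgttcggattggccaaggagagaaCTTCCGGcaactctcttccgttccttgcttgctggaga
Atp5j: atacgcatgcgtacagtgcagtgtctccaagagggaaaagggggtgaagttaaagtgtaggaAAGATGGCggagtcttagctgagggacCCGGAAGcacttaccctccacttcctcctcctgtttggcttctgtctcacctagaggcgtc
Cox6a1: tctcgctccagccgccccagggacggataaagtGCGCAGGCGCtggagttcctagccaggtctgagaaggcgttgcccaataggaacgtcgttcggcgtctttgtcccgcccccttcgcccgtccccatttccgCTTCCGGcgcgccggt
Sdhd: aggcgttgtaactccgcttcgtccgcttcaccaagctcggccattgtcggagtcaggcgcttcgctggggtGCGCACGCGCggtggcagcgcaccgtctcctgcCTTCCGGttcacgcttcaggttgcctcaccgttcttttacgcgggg
Sdha: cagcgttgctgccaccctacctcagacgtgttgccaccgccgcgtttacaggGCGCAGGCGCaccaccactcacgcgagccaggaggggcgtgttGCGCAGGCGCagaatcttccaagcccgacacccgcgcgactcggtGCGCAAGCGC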

How the data were processed

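RNA-seq of 14 libraries was analysed from deposited gene tables. Per the submitters' processing notes, Subread 1.6.0, featureCounts and limma were named, with builds mm10 and hg38; order, annotation and filters are not given in the sources used here. The authors deposited counts, whole reads per gene without normalisation, for 27179 mouse and 28395 human entries; entries without a symbol (958 and 450, at most 0.306% of a library) were left out. The authors also deposited log2 FPKM tables, with no stated offset or normalisation, used as an alternative and for levels between human genes. The 2 Irf4 flox/+ count columns share a name and are called a and b.

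Each comparison was fitted on its 4 libraries with edgeR 4.0.16 (R 4.3.3; TMM, filterByExpr with a minimum count of 10, quasi-likelihood F test, Benjamini-Hochberg, threshold 0.05). Alternatives used DESeq2 1.42.0, limma 3.58.1, other scaling, no filter, blocks and left-out libraries. CPM are TMM-scaled within a comparison unless stated. Exonic lengths and shared 50-base stretches came from GENCODE M21 (GRCm38). Scripts were tested on simulated data. Members and lists were chosen with earlier results of these data known; named genes are all mitochondrially encoded genes, fixed catalytic genes, the highest and lowest log2 fold change per complex, and isoforms of at least 1 CPM, while others were named after their values were seen. An item among the catalytic genes is not reported here.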

Additional observations from a re-analysis of the deposited data

How the results depend on the processing

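Counts of members called stayed at 0 under every alternative run in all 3 comparisons, which includes DESeq2, other scaling, no filter, left-out genes, limma on log2 FPKM and each left-out library. The median log2 fold change of nuclear subunits in splenic cells went from -0.47 to 0.42 with library size alone. That of all genes went from 0.09 to 0.98 with the same change, and nuclear minus all genes was -0.55 and -0.56. Over the left-out libraries the nuclear median was -0.71 to -0.22, and that of mitochondrially encoded genes ran from 0.0215 to 2.05. Left-out libraries gave -0.62 to -0.02 and 0.07 to 1.22 in MPC-11, and -0.32 to 0.04 for nuclear subunits in MM.1S. The replicate block gave nuclear medians of -0.37 in MPC-11 and -0.15 in MM.1S and called no member; for splenic cells it was possible only on log2 FPKM (-0.485, with a median of -0.18 over all genes). Deviations of same-numbered libraries had a correlation of -0.107 in MPC-11 and 0.134 in MM.1S. With 2 pairs these values cannot show whether same-numbered libraries belong together, and the labels give only the number. Crossing the numbers in MPC-11, an alternative chosen after seeing the data, called 0 members and 1 of all genes. Calls over all genes were 0, 2 and 1 in splenic cells, MPC-11 and MM.1S, and 0 to 635, 0 to 159 and 0 to 374 over the alternatives other than left-out libraries, which gave 0, 1 to 37 and 0 to 966 (the last without MM.1S empty vector library 1). Bone marrow plasma cells minus follicular B cells had a median log2 difference of 0.07 for nuclear subunits and -0.64 for mitochondrially encoded genes in CPM, and 0.02 and -1.05 in log2 FPKM. Depth limits what can be said of ND3, ND4L, ATP8, Atp5g2 and Uqcr11, which had few counts in splenic cells.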
